A study of Mus musculus with 221 samples.

Results

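The 10 genes described here are Myc, Mycn and their partner Max, and 7 genes of nucleolar proteins, Ncl, Npm1, Fbl, Nop56, Nop58, Nolc1 and Ddx21. They were chosen by gene symbol alone: every transcript row whose symbol field carried 1 of these names was taken, which gave 81 of 278369 transcripts and 10 of 78001 symbols. All 10 genes had counts, and 6 of their 81 transcripts, 2 of Max, 2 of Fbl and 1 each of Nop56 and Nop58, were at 0 in every cell. Mycn had been placed by the study in a signature shared by its HE populations, and Ncl in a signature of erythromyeloid fate, both derived from cells of the same project, so the values of these genes are not independent evidence of those patterns.

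The cells came from mouse embryos and were taken along the endothelial-to-hematopoietic transition (EHT), in which hemogenic endothelium (HE) of the aorta-gonad-mesonephros region (AGM) or of the yolk sac (YS) turns into blood cells. HE-AGM comprised an early and a late cluster and was followed by HE-Hb, the cluster of the AGM after HE. In the YS, the arterial population HE-YSA and the plexus population HE-YSP each had an early and a late cluster, and the progenitor clusters p1, skewed to lymphomyeloid progenitors, and p2, skewed to erythromyeloid progenitors, lay beyond them. Single cells were sorted into plates and frozen, their cDNA was amplified by Smart-seq2, and the long reads of that cDNA were counted per transcript. No cell was treated. By the account of the study, HE of the YS was gated as KIT positive, CD31 positive and negative for CD41, CD45 and TER119. It came from embryos with a Runx1b-RFP or a Gfi1-GFP reporter or both. For HE of the AGM the study names an established phenotype: CDH5 positive, negative for KIT, CD41 and CD45, and positive for Gfi1 or Gfi1b. It does not state this as the gate of the AGM cells counted here. The library names gave the day (E9.0, E9.5 or E10.5) of all but 1 of the YS cells, and a Gfi1 or a Runx1 label of all but 1, which was named ACE. Of the 49 HE-AGM cells, 1 was named E10.5 and 5 others Gfi, and the rest, like HE-Hb, carried neither a day nor a label. In HE-YSA 47 of 52 cells carried the Gfi1 label, and in HE-YSP 36 of 49 carried the Runx1 label, so reporter and YS population went together. After the library size filter, the clusters held 29 (HE-AGM early), 20 (HE-AGM late), 21 (HE-Hb), 23 (HE-YSA early), 29 (HE-YSA late), 17 (p1), 25 (HE-YSP early), 24 (HE-YSP late) and 20 cells (p2), 208 of 221 in all.

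Each deposited sample is 1 cell and no embryo is named, so each cluster counts as 1 sample and no test was made between them. The clusters had been called from short reads of the same cells, and all values below are a description of these clusters. Levels are CPM, the summed estimated counts of a gene scaled by the total of the cluster, with exact Poisson 95% intervals. Because reads carried no molecular identifiers, these intervals and all others below cover counting error only. The values of the 3 nanopore runs, each of which held cells of every cluster, stand beside the levels as a check on the spread. A level of a cluster does not tell less RNA per cell from fewer cells with the RNA, so the number of cells with at least 1 count is given too.

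Totals per cell ranged from 18131 to 125339 counts, with medians of 59311, 34483.5 and 33297 for HE-AGM, HE-YSA and HE-YSP. The cDNA projects nearly followed the tissue. Of the 49 HE-AGM cells, 43, 5 and 1 came from 3 projects, and the YS cells came from another one, except for 1 HE-YSA early cell from the project of those 5. A single YS cell gives no value within a project, so project and tissue cannot be told apart. Besides this cell, 1 cell each of HE-YSA early and HE-YSA late carried AGM in the library name although labelled as yolk sac. All 3 were kept with their labels. Without them Fbl was at 148 CPM in HE-YSA early and 247 CPM in HE-YSA late, in place of 171 and 263 CPM, and Mycn at 163 and 248 CPM, in place of 163 and 249 CPM. The count-weighted mean length of the transcripts was 1507, 1169 and 1162 nt in the same order. The summed level of Cdh5, Pecam1, Kdr and Procr, markers of endothelium, was 1414, 542 and 173 CPM in HE-AGM early, HE-AGM late and HE-Hb, 1117, 963 and 92.9 CPM in HE-YSA early, HE-YSA late and p1, and 1065, 440 and 38.2 CPM in HE-YSP early, HE-YSP late and p2. Lyve1 and Stab2, plexus markers, summed to 1760 CPM in HE-YSP early and to 414 CPM in HE-YSP late, and to no more than 151 CPM in any other cluster. The blood markers Runx1, Gfi1, Myb, Ptprc and Itga2b summed to 226, 418 and 294 CPM from HE-AGM early to HE-Hb. They summed to 124, 223 and 92.9 CPM from HE-YSA early to p1, and to 75.2, 123 and 102 CPM from HE-YSP early to p2. Their sum was thus lower after HE than in late HE in each trajectory. Of these genes, Ptprc was at 0 in the 4 HE clusters of the YS and Gfi1 was at 0 in p1 and p2. Macrophage, mesenchyme and endoderm markers summed to at most 15.96, 7.22 and 2.58 CPM in any cluster. Erythroid markers reached 303 CPM in HE-AGM early, where 1 cell held 9973 CPM, and at most 42.7 CPM in the other clusters.

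Myc and Mycn are related transcription factors of the basic helix-loop-helix leucine zipper class. Each binds DNA as a dimer with Max at the E-box CACGTG and related sites, and genes of ribosome production are among their best known targets. Ribosomal RNA is made and processed in the nucleolus. Fbl, the methyltransferase of box C/D small nucleolar ribonucleoproteins (snoRNPs), and its scaffold partners Nop56 and Nop58 modify the precursor RNA at sites chosen by a guide RNA. Nolc1, a phosphoprotein, acts as a chaperone of snoRNPs. Ncl (nucleolin) and Npm1 (nucleophosmin) are abundant RNA-binding and chaperone proteins of the nucleolus, and Ddx21 is an RNA helicase that takes part in transcription by RNA polymerase I and in processing.

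The stretches of sequence around E-box letters in the promoters of the members are shown because Myc proteins are known to bind such letters. RefSeq promoters of build GRCm38.p6, which run from 250 bases before to 50 bases after the start of a gene, were at hand for 7 of the 10 members and not for Myc, Npm1 and Fbl. Both strands were searched for CACGTG, which reads alike on both, and for CACGCG, which reads CGCGTG on the other. CACGTG was found in 1 of the 7, Max, and in 7.15% of 32851 promoters. CACGCG or CGCGTG was found in 2 of the 7, Nolc1 and Ddx21, and in 9.27% of all promoters. The capitals mark the motif, and the 3 stretches are from chr12:76962234-76962263 on the minus strand (Max), chr19:46075810-46075839 on the plus strand (Nolc1) and chr10:62602249-62602272 on the minus strand (Ddx21).
Max: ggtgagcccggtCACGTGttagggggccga
Nolc1: gcaggatgatgaCGCGTGtgggaccggaag
Ddx21: cctctctcctagCACGCGgttgag
The motif began 3 bases before the start of Max, 25 bases before that of Nolc1 and 38 bases after that of Ddx21. No binding was measured in these cells, and a match of letters is not a bound site.

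Mycn was the member with the plainest difference among the HE clusters. It lies on the minus strand of chromosome 12 at chr12:12936093-12941914 (GRCm38). Its level was 156 CPM in HE-AGM early (139 to 174), 257 CPM in HE-AGM late (231 to 285), 163 CPM in HE-YSA early (137 to 193) and 249 CPM in HE-YSA late (220 to 281). In HE-YSP it was 30.6 CPM in the early cluster (19.96 to 44.8) and 167 CPM in the late cluster (140 to 197). The early plexus cluster was thus the lowest of the 9 clusters, and its interval lay below those of all 8 others. HE-Hb, p1 and p2 had 155 CPM (136 to 176), 195 CPM (163 to 232) and 190 CPM (160 to 224), and their intervals overlapped.

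The number of cells with Mycn showed the same order at its low end. At least 1 count was found in 6 of 25 cells of HE-YSP early, 24% (exact binomial interval 9.36 to 45.1%), against 20 of 24 in HE-YSP late, 15 of 23 in HE-YSA early, 26 of 29 in HE-YSA late, 23 of 29 in HE-AGM early and 20 of 20 in HE-AGM late. When all cells were thinned to 1 depth, the numbers were 6 of 25 in HE-YSP early, 19 of 24 in HE-YSP late and 15 of 23 in HE-YSA early. Per cell, the level ranged from 0 to 181 CPM in HE-YSP early with a median of 0, and from 0 to 621 CPM with a median of 145 CPM in HE-YSP late. The ranges of the cells overlapped, but 19 of the 25 early cells had no count. The runs gave 26.8, 3.98 and 56.4 CPM in HE-YSP early and 136, 244 and 148 CPM in HE-YSP late, so every run put the early cluster below the late.

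The low level of Mycn in HE-YSP early was found on both days with enough cells. It was 30.8 CPM in its 10 cells of E9.0 (13.3 to 60.6) and 34.7 CPM in its 13 cells of E10.5 (20.6 to 54.9). The 22 Runx1-labelled cells of the cluster had 34.9 CPM (22.8 to 51.1) and the 3 Gfi1-labelled cells had no count, which allows up to 35.2 CPM. In HE-YSP late the 10 Gfi1-labelled and the 14 Runx1-labelled cells had 184 and 155 CPM with overlapping intervals. Within HE-YSA the day went with the level. The 7 cells of E9.5 had 275 CPM in the early and 455 CPM in the late cluster, and the cells of E10.5 had 89.9 CPM (14 cells) and 204 CPM (21 cells), with intervals that did not overlap between days. HE-YSP late had 264 CPM at E9.0 (6 cells, 196 to 347), 141 CPM at E9.5 (11 cells, 102 to 189) and 133 CPM at E10.5 (7 cells, 95.9 to 180). Embryos are not named, so day and embryo cannot be told apart.

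**Figure D1:**
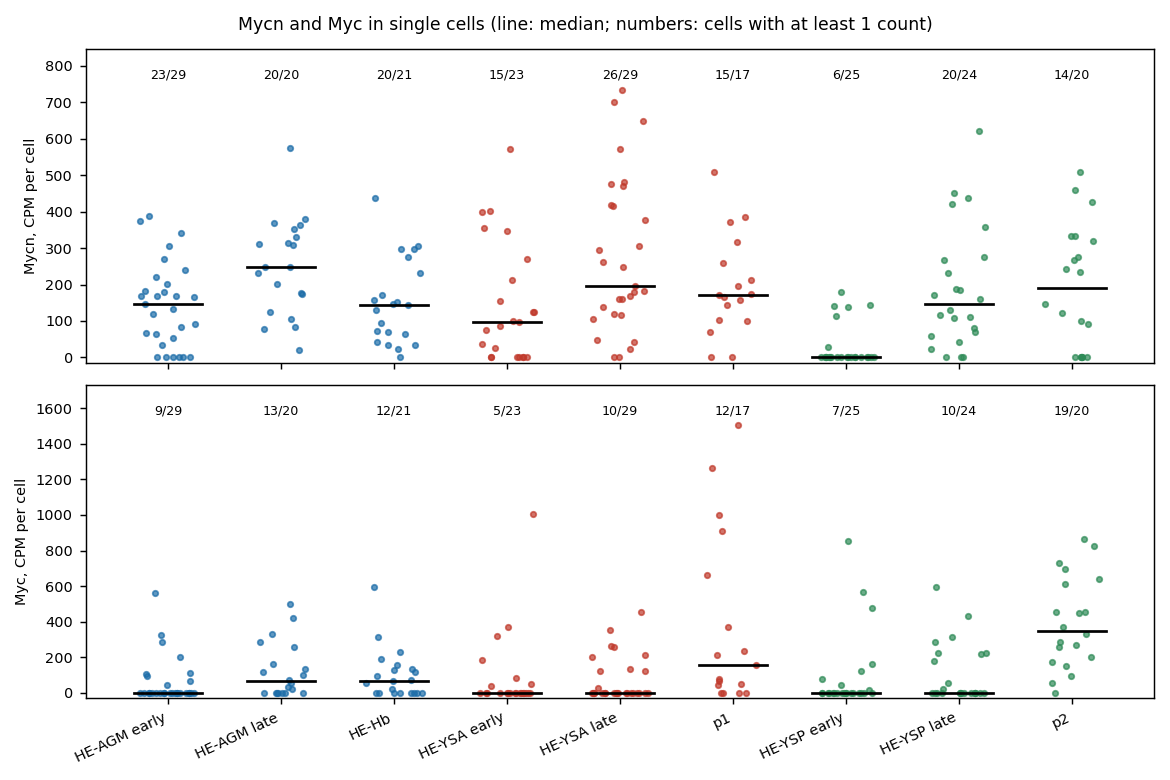
Level of Mycn (top) and Myc (bottom) in single cells of the 9 clusters, in CPM per cell on a linear axis; each point is a cell, the line is the median and the numbers give the cells with at least 1 count. Mycn was found in 6 of 25 cells of HE-YSP early and Myc in 19 of 20 cells of p2.

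Myc, on the plus strand at chr15:61985391-61990374 (GRCm38), was highest in the YS progenitors. Its level was 414 CPM in p1 (366 to 467) and 385 CPM in p2 (341 to 433), and these intervals overlapped. The next highest cluster was HE-AGM late with 147 CPM (128 to 169), followed by HE-YSA early with 120 CPM (97.9 to 146), HE-YSP late with 115 CPM (92.5 to 140) and HE-Hb with 108 CPM (92.0 to 126), whose intervals overlapped one another except for those of HE-AGM late and HE-Hb. HE-YSP early had 82.3 CPM (64.1 to 104), HE-YSA late 79.8 CPM (63.8 to 98.7) and HE-AGM early 48.5 CPM (39.2 to 59.3). The level of HE-YSA early rested on few cells: 1 cell held 55.4% of its Myc counts, and without it the level was 57.3 CPM.

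Over all labels, progenitors of both YS trajectories differed from the HE before them in the cells too. Myc was found in 12 of 17 cells of p1 and 19 of 20 of p2, against 10 of 29 in HE-YSA late and 10 of 24 in HE-YSP late. Label differed as well: all 29 cells of HE-YSA late were Gfi1-labelled, and 5 of the 17 cells of p1 were. Myc was found in 2 of these 5 cells, at 593 CPM (493 to 706). Beside the 10 of 29 in HE-YSA late, the number of cells with Myc was not shown to differ within this label. It was found in 10 of the 12 Runx1-labelled cells of p1, at 330 CPM (279 to 388). Among Runx1-labelled cells of the plexus trajectory, it was found in 17 of 18 of p2 and 6 of 14 of HE-YSP late. Cells ranged from 0 to 1507 CPM in p1 with a median of 157 CPM, and from 0 to 864 CPM in p2 with a median of 349 CPM. The median was 0 in each of the 4 HE clusters of the YS, where single cells reached 1004, 457, 856 and 593 CPM in HE-YSA early, HE-YSA late, HE-YSP early and HE-YSP late. The cells of the groups overlapped. The runs gave 330, 284 and 511 CPM in p1 and 380, 292 and 440 CPM in p2, and no run of any HE cluster of the YS exceeded 216 CPM.

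HE-Hb of the AGM did not show such a level. Myc was found there in 12 of 21 cells, between 0 and 597 CPM with a median of 67.0 CPM, and in runs at 53.5, 110 and 141 CPM, all below every run of p1 and p2. Tissue and cDNA project differed between these clusters as well.

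The balance of Mycn and Myc counts moved along the YS trajectories. Mycn made up 75.7% of the counts of both genes in HE-YSA late and 32% in p1, and 59.3% in HE-YSP late and 33.0% in p2. In HE-YSP early it made up 27.1%, and in the AGM clusters 76.3%, 63.5% and 58.9% from HE-AGM early to HE-Hb. In HE-YSP early 1 of 25 cells had counts of both, 5 of Mycn alone, 6 of Myc alone and 13 of neither. In HE-AGM late 13 of 20 cells had both and 7 had Mycn alone, and in p2 14 of 20 had both and 5 had Myc alone. No cell of HE-AGM had Myc without Mycn, at full depth, whereas thinning gave 2 such cells of 49.

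Max, the shared partner of both proteins, was near the limit of detection, with 138 counts in all 208 cells. Its gene lies on the minus strand at chr12:76937269-76962201 (GRCm38). The level was 20.6, 23.01 and 19.9 CPM in HE-AGM early, HE-AGM late and HE-Hb, 3.57, 1.88 and 12.2 CPM in HE-YSA early, HE-YSA late and p1, and 8.23, 15.8 and 4.10 CPM in HE-YSP early, HE-YSP late and p2. At least 1 count was found in 11 of 49 cells of HE-AGM, 2 of 52 of HE-YSA and 5 of 49 of HE-YSP. A single cell held 52.5% of the counts in HE-AGM early, 53.3% in HE-Hb, 50% in p1, 46.2% in HE-YSP late and 85.7% in HE-YSP early, and all of them in HE-YSA late and p2. Without that cell the level was 10.3 CPM in HE-AGM early, 9.81 CPM in HE-Hb, 6.74 CPM in p1, 8.77 CPM in HE-YSP late and 1.23 CPM in HE-YSP early. These values rest on between 2 and 40 counts per cluster.

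Among the nucleolar members, Ncl was found in 22 of 23 cells of HE-YSA early and Npm1 in 28 of 29 of HE-YSA late, and each was found in all cells of the 8 other clusters. Npm1, on the minus strand at chr11:33152287-33163206 (GRCm38), had 946, 1195 and 1443 CPM in HE-AGM early, HE-AGM late and HE-Hb. It had 501, 605 and 810 CPM in HE-YSA early, HE-YSA late and p1, and 432, 671 and 749 CPM in HE-YSP early, HE-YSP late and p2. The 3 AGM clusters were the 3 highest, with the interval of HE-AGM early (904 to 991) above that of p1 (743 to 882). Cells of HE-AGM ranged from 238 to 1894 CPM with a median of 989 CPM, and those of HE-YSA from 0.00750 to 1419 CPM with a median of 526 CPM, so the cells overlapped. Of the Npm1 counts, 99.4% were not whole numbers, since reads were divided among transcripts. This part was 74.5% for Ncl, 72.2% for Mycn, 62.9% for Nop56, 53.6% for Max and 42.3% for Nop58. It was 41.3% for Myc, 25.7% for Nolc1, 1.35% for Fbl and 0.402% for Ddx21.

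Ncl, on the minus strand at chr1:86344719-86359400 (GRCm38), was highest in p2. Its level was 718, 956 and 1158 CPM in the AGM clusters, 596, 691 and 1031 CPM from HE-YSA early to p1, and 536, 982 and 1496 CPM from HE-YSP early to p2. Each step within a trajectory was upward, and the interval of p2 (1409 to 1588) lay above those of all other clusters. The runs gave 1554, 1661 and 1353 CPM in p2 and 945, 1164 and 1030 CPM in p1, which did not overlap.

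Fbl, on the plus strand at chr7:28169710-28179269 (GRCm38), followed the AGM trajectory upward. It had 331, 456 and 573 CPM in HE-AGM early, HE-AGM late and HE-Hb, 171, 263 and 257 CPM from HE-YSA early to p1, and 116, 339 and 340 CPM from HE-YSP early to p2. It was found in 14 of 23 cells of HE-YSA early and 16 of 25 of HE-YSP early, and in 20 of 20 of HE-AGM late, 21 of 21 of HE-Hb and 20 of 20 of p2. Cells of HE-YSP early had a median of 79.9 CPM and a highest value of 691 CPM, and those of HE-YSP late a median of 335 CPM and a highest value of 858 CPM.

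Nop56, on the plus strand at chr2:130274430-130279313 (GRCm38), had 289, 384 and 338 CPM in the AGM clusters, 251, 261 and 294 CPM from HE-YSA early to p1, and 105, 354 and 423 CPM from HE-YSP early to p2. Nop58, on the plus strand at chr1:59684971-59719044, had 155, 168 and 240 CPM, 159, 123 and 204 CPM, and 103, 223 and 227 CPM in the same order. Nolc1, on the plus strand at chr19:46075863-46085530, had 142, 196 and 150 CPM, 138, 176 and 215 CPM, and 99.9, 195 and 332 CPM. For all 3 genes HE-YSP early was the lowest of the 9 clusters, and for Nop56 its interval (84.0 to 129) lay below all others. Nolc1 was highest in p2 (291 to 376), above the interval of every other cluster.

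Ddx21, on the minus strand at chr10:62580251-62602281 (GRCm38), was the least abundant nucleolar member. It had 36.1, 105 and 85.4 CPM in the AGM clusters, 17.8, 22.5 and 31.98 CPM from HE-YSA early to p1, and 21.2, 36.5 and 60.1 CPM from HE-YSP early to p2. Without the cell with the most counts the level was 9.97 CPM in HE-YSP early, where that cell held 55.6% of the counts, and 18.8 CPM in p1, where it held 47.6%. It was found in 32 of 49 cells of HE-AGM, 12 of 52 of HE-YSA and 10 of 49 of HE-YSP. Cells ranged from 0 to 355 CPM in HE-AGM with a median of 40.0 CPM, and the median was 0 in both YS populations.

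**Figure D2:**
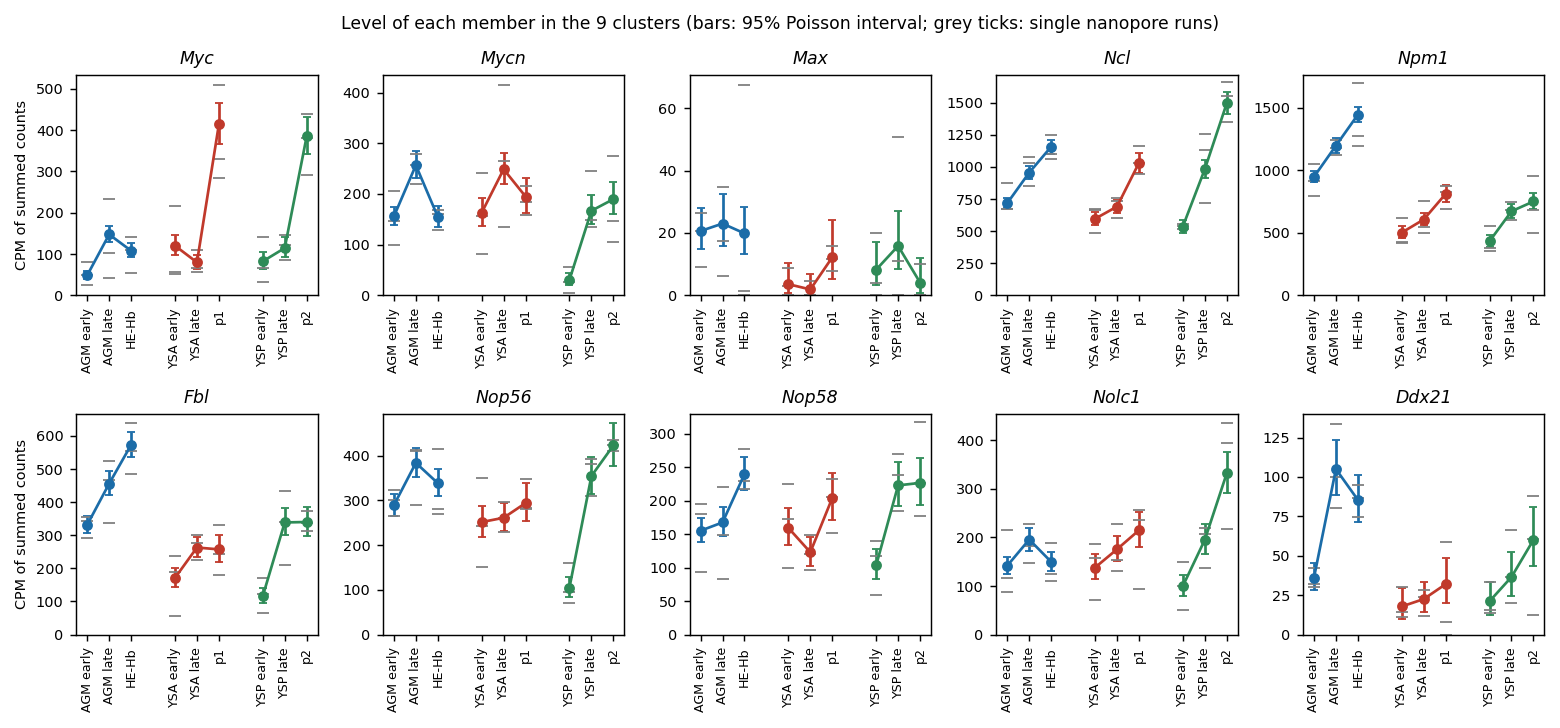
Level of each of the 10 genes in the 9 clusters, in CPM of summed counts on linear axes that start at 0; points are clusters in the order of each trajectory, bars the 95% Poisson intervals and grey ticks the 3 nanopore runs. Myc stood highest in p1 (414 CPM) and p2 (385 CPM), Mycn lowest in HE-YSP early (30.6 CPM), and Npm1 highest in HE-Hb (1443 CPM).

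The question of how intra-embryonic HE differed from the extra-embryonic populations was next put to the 10 genes, as log2 ratios of CPM with 0.5 counts added and an exact interval. A ratio of at least 2-fold was called, in genes with at least 50 summed counts over the pair. Against HE-YSA, 2 of the 10 members were called higher in HE-AGM, Max and Ddx21, and 0 lower, beside 29.3% of 8963 genes called higher and 12% called lower. The median over the members was 0.34 and that over all genes 0.25. Against HE-YSP, 2 of 10 were called higher, Mycn and Ddx21, and 0 lower, beside 31.1% of 8795 genes higher and 13.2% lower, with medians of 0.65 and 0.30. In both cases the share of members called was below that of all genes, while the median of the members was above theirs and 8 of 10 members were above 0. With scaling by the trimmed mean of M values (TMM) the median of all genes moved to 0.06 and 0.09, that of the members to 0.15 and 0.44, and the shares of all genes to 24.7% higher and 15.9% lower in the first comparison and 26.2% and 17.6% in the second. With TMM 0 members were 2-fold higher against HE-YSP.

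Single members differed in this comparison. Ddx21 had 64.9 CPM (56.5 to 74.1) in HE-AGM, but 20.5 CPM (14.6 to 27.98) in HE-YSA, and the level was 28.7 CPM (21.2 to 38.1) for HE-YSP. It was 3.14-fold higher than in HE-YSA (log2 ratio 1.65, 1.17 to 2.20; runs 1.85, 1.29 and 1.59) and 2.24-fold higher than in HE-YSP (1.16, 0.72 to 1.66; runs 1.48, 0.45 and 1.33). Npm1 was 1.88-fold higher than in HE-YSA (0.91, 0.81 to 1.01; runs 1.12, 0.94 and 0.71) and 1.91-fold higher than in HE-YSP (0.93, 0.83 to 1.041; runs 1.11, 0.79 and 0.86), just short of the 2-fold limit. Fbl was 1.72-fold and 1.70-fold higher than in these populations (log2 ratios 0.78 and 0.76; runs 0.35, 1.11 and 0.90 for the first, 0.36, 1.07 and 0.84 for the second). For these genes the direction was the same in each run. Within each run the cDNA projects also nearly followed the tissue, so the runs do not separate them. Ddx21 was counted mostly in a transcript of 4722 nt, and the mean transcript length differed between the tissues, as given above. The part of read length and of the cDNA project in these levels was not tested.

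The other members gave smaller ratios. For Ncl the log2 ratio was 0.33 against HE-YSA (0.24 to 0.43) and 0.11 against HE-YSP (0.02 to 0.21), the latter turning to -0.09 with TMM. For Nop56 the ratios were 0.36 (0.20 to 0.51) and 0.53 (0.36 to 0.70). The intervals of Nop58 and Nolc1 included 0 in both comparisons, with ratios of 0.20 and 0.05 for the arterial and -0.02 and 0.16 for the plexus population, and their runs had different signs. Those of Myc also included 0, at -0.12 (-0.39 to 0.15) and -0.13 (-0.41 to 0.16). Max was 2.92 higher on the log2 scale than in HE-YSA (1.75 to 4.71), which rests on 72 counts against 5, and its runs ran from 0.73 to 3.896. Over HE-YSP it was at 0.83 (0.12 to 1.65), below the 2-fold limit, and its runs of 0.25, -1.58 and 5.31 had both signs. All these ratios are to be read beside the medians of 0.25 and 0.30 over all genes.

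Over all labels, Mycn set HE-YSP apart from both other populations. It had 97.5 CPM (83.1 to 114) in HE-YSP, against 198 CPM (183 to 214) in HE-AGM and 211 CPM (191 to 233) in HE-YSA. The interval of the ratio of HE-AGM over HE-YSA included 0 (log2 ratio -0.09, -0.27 to 0.09). HE-AGM was 2.03-fold higher than HE-YSP (1.02, 0.77 to 1.28; runs 1.41, 0.60 and 0.94), and HE-YSP over HE-YSA was -1.11 (-1.39 to -0.85; runs -1.15, -1.21 and -1.02). Between the YS populations Mycn was the 1 member called, lower in HE-YSP, of 9 with enough counts, and 0 were called higher, beside 7.08% of 6582 genes called lower and 6.02% called higher. As given above, the early clusters had 30.6 CPM in the plexus and 163 CPM in the arterial population, and the late clusters 167 and 249 CPM, so the gap was wider between the early clusters. Label and population went together. Among Gfi1-labelled cells of the late clusters, Mycn was at 184 CPM in HE-YSP (10 cells, 141 to 236) and 249 CPM in HE-YSA (29 cells, 220 to 281). These intervals overlapped. Among those of the early clusters it had no count in HE-YSP (3 cells) and 165 CPM in HE-YSA (18 cells). In Runx1-labelled early cells it was at 34.9 CPM in HE-YSP (22 cells) and 206 CPM in HE-YSA (4 cells). For HE-YSP over HE-YSA the median over the members and over all genes was 0.01. All 3 comparisons use the same 3 populations, so their ratios are not independent of each other.

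**Figure D3:**
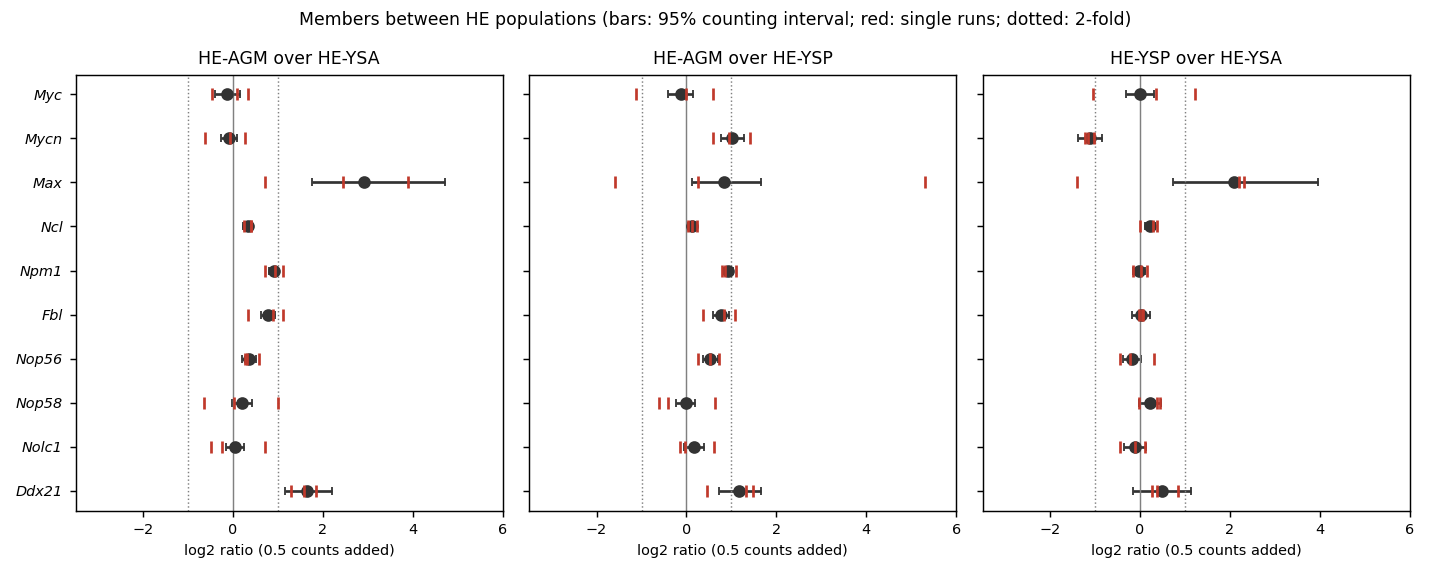
Log2 ratio of each gene in 3 panels, which set HE-AGM against HE-YSA, HE-AGM against HE-YSP and the plexus against the arterial population of the YS, with 0.5 counts added; bars are 95% counting intervals, red marks the single runs and dotted lines 2-fold. Ddx21 lay at 1.65 and 1.16 for HE-AGM over the YS populations, and Mycn at -1.11 for HE-YSP over HE-YSA.

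From early to late HE, the plexus trajectory showed the broadest difference. From HE-YSP early to HE-YSP late all 10 ratios were above 0, and 4 of the 8 members with enough counts were at least 2-fold higher, beside 8.77% of 4275 genes. These were Mycn (log2 ratio 2.43, 1.84 to 3.11; runs 2.27, 5.37 and 1.36), Nop56 (1.75, 1.41 to 2.12; runs 2.02, 1.26 and 2.13), Fbl (1.54, 1.21 to 1.89; runs 2.73, 0.29 and 1.45) and Nop58 (1.10, 0.73 to 1.49; runs 1.01, 0.95 and 1.60). Nolc1, Ncl and Npm1 were at 0.96, 0.87 and 0.64, with the same sign in each run, and Myc at 0.47 (0.02 to 0.94). The median of all 10 members was 0.93, beside 0.10 for all genes. Both clusters also differed in day and label: 22 of 25 early and 14 of 24 late cells were Runx1-labelled, 10 of 25 against 6 of 24 were of E9.0, and 2 of 25 against 11 of 24 were of E9.5. The late cells of E9.5 had the highest Ncl, Fbl and Nop58 of the 3 days in that cluster, at 1224, 478 and 276 CPM. Fbl in HE-YSP late was 398 CPM at E9.0 and 165 CPM at E10.5, and in HE-YSP early 165 and 81.1 CPM at these days. Nop56 was at 351 and 304 CPM in the late and at 135 and 94.3 CPM in the early cluster, so early cells were lower at both days for these genes. By label this did not hold for Fbl in Gfi1-labelled cells. It was at 286 CPM in the 3 early cells (193 to 408) and 253 CPM in the 10 late cells (202 to 313). In Runx1-labelled cells Fbl was at 92.5 CPM early and 397 CPM late. Nop56 was at 133 and 368 CPM in Gfi1-labelled and at 101 and 345 CPM in Runx1-labelled cells, early and late.

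In the AGM, 2 of 10 members were at least 2-fold higher in HE-AGM late than in HE-AGM early, beside 5.98% of 7511 genes, and all 10 ratios were above 0 with a median of 0.44, beside -0.02 for all genes. Ddx21 was 2.90-fold higher (1.53, 1.12 to 1.97; runs 2.13, 1.29 and 1.22). Myc was 3.03-fold higher over all cells (log2 ratio 1.600, 1.25 to 1.97), but the runs gave -0.91, 1.06 and 3.18, so its direction was not the same in each run. Mycn was at 0.72 (0.50 to 0.95; runs 0.09, 1.36 and 0.93). In the AGM step 0 members were called lower, beside 12.1% of all genes. In HE-YSA, 0 of 8 members with enough counts were called higher in the late cluster, beside 6.33% of 4677 genes. The median of all 10 members was 0.24 there, beside 0.04 for all genes. Mycn and Fbl were at 0.61 and 0.62 there, with 1 run of each below 0, and Myc at -0.59 with the 1 cell noted above and at 0.47 without it.

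From late HE to progenitors, Myc was the 1 member called in each YS trajectory. In p1 it was 5.17-fold higher than in HE-YSA late (2.37, 2.02 to 2.74; runs 2.30, 2.31 and 2.21), and leaving out any 1 cell gave between 2.06 and 2.69. In p2 it was 3.35-fold higher than in HE-YSP late (1.74, 1.41 to 2.10; runs 1.36, 1.24 and 2.35; leaving out 1 cell, 1.64 to 2.03). It was 1 of 8 members with enough counts in the first, beside 7.14% of 4386 genes, and 1 of 9 in the second, beside 4.79% of 4111 genes. These shares of members are near the background, and the result is that of 1 gene. Over the same steps Ncl was at 0.58 and 0.61, with intervals above 0, Nop58 at 0.73 and 0.02, and Nolc1 at 0.29 and 0.77. Mycn was at -0.35 (-0.67 to -0.04) and 0.19 (-0.17 to 0.54) and had runs of both signs.

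From HE-AGM late to HE-Hb, 0 of 10 members were called higher, beside 6.37% of 6625 genes. Mycn was 0.60 times its level of HE-AGM late (log2 ratio -0.73, -0.97 to -0.49; runs -0.78, -0.68 and -0.72), and Nolc1 was at -0.39 with each run below 0. Ncl, Npm1, Fbl and Nop58 were at 0.28, 0.27, 0.33 and 0.52, each above 0 in every run. Between the progenitors, 0 of 9 members were called higher in p2 than in p1, beside 5.07% of 3804 genes. Ncl was at 0.54 (0.40 to 0.68; runs 0.72, 0.51 and 0.39) and Nop56 at 0.52 (0.26 to 0.79; runs 0.53, 0.28 and 0.63). Nolc1 was at 0.63 with 1 run below 0, and Myc (-0.11, -0.35 to 0.14) and Mycn (-0.04, -0.40 to 0.32) had intervals that included 0.

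The shares of transcripts within a gene separated AGM from YS more plainly than the levels did. For Nop58, the transcript Nop58-203 of 461 nt held 31.0% (27.001 to 35.0%), 68.7% (62.7 to 74.2%) and 69.3% (63.5 to 74.8%) of the counts in HE-AGM, HE-YSA and HE-YSP, and Nop58-201 of 1713 nt held 45.0%, 11.7% and 10.52%. For Nolc1, Nolc1-204 of 741 nt held 15.1% (12.3 to 18.5%), 56.4% (50.6 to 62.1%) and 55.4% (49.0 to 61.8%). The long Nolc1-202 and Nolc1-209 had equal counts, each 24.3%, 9.08% and 13.3%, since reads could not be told apart between them. The runs gave 25.95, 8.14 and 8.37% for Nolc1-204 in HE-AGM and 58.3, 19.7 and 74.7% in HE-YSA. The ranges of the runs overlapped there, whereas for Nop58-203 they did not (15.3 to 37.5% in HE-AGM and 65.0 to 73.9% in HE-YSA).

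Nop56 and Ncl had the same order. Nop56-206 of 518 nt held 3.499% in HE-AGM (2.47 to 4.74%), 24.8% in HE-YSA and 20.3% in HE-YSP, while Nop56-202 of 1877 nt held 74.7%, 55.5% and 53.6%. Ncl-203 of 661 nt held 12.7%, 26.98% and 20.4%, with runs from 10.7 to 14.9% in the first, 22.7 to 31.9% in the second and 18.9 to 21.9% in the third. The clusters after HE kept the order of their tissue: Nop58-203 held 31.6% in HE-Hb, 74.9% in p1 and 51.6% in p2, Nolc1-204 held 15.04%, 57.4% and 45.5%, and Nop56-206 held 3.76%, 14.3% and 16.9%.

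**Figure D4:**
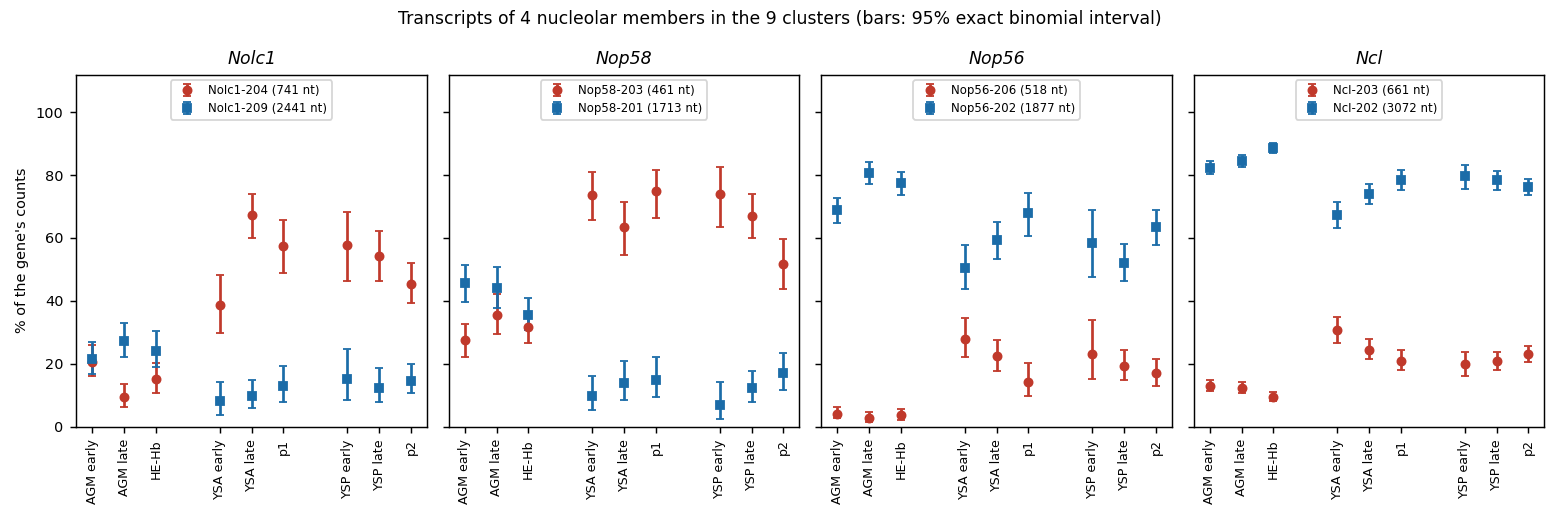
Share of the counts of Nolc1, Nop58, Nop56 and Ncl held by a short transcript with no annotated 3′ end (red) and by a long one (blue), in % for the 9 clusters, with 95% exact binomial intervals as bars. The short Nop58-203 held 31.0% in HE-AGM and 68.7% in HE-YSA.

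The short transcripts are models whose 3′ end is not known. In the annotation GENCODE M21 (GRCm38), Nop58-203, Nolc1-204, Nop56-206, Ncl-203 and Fbl-206 are each marked as lacking the end of the mRNA, and they hold 5, 5, 5, 3 and 4 exons where the coding transcript they were set against has 15, 13, 12, 14 and 9. Models of this kind together held 36.1%, 75.9% and 76.8% of the Nop58 counts in HE-AGM, HE-YSA and HE-YSP, and 15.1%, 56.4% and 55.4% of the Nolc1 counts. The same shift was seen outside the members. Among 1411 genes with counts in such models, the share was lower in HE-AGM than in HE-YSA in 81.3%, with a median difference of -4.84 percentage points. Summed over the 1506 genes that had such a model and at least 50 counts in each population, it was 12.8% in HE-AGM and 24.0% in HE-YSA. Between the YS populations the share was lower in HE-YSP in 51.4% of 1214 genes, with a median difference of -0.08 points. The mean transcript length moved with it, as given above, and the part of read length and of the cDNA project in these shares was not tested. Fbl went the other way, with 10.1% of its counts in Fbl-206 in HE-AGM (8.50 to 11.9%) and 4.72% and 5.04% in HE-YSA and HE-YSP.

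Ncl is a case of its own, because most of its counts lay in a transcript annotated as a retained intron. Ncl-202 of 3072 nt held 83.4% (81.9 to 84.8%), 71.4% (68.8 to 73.9%) and 78.8% (76.5 to 81.1%) in HE-AGM, HE-YSA and HE-YSP, and 88.7% in HE-Hb. Set against the coding Ncl-201 of 8202 nt, its 12 exons keep 2 introns, 190 nt at chr1:86352320-86352509 and 492 nt at chr1:86352634-86353125, it has 77.8% of its bases in exons of Ncl-201, and it ends 5776 nt before the end of Ncl-201. Only the counts and not the reads were used here, so whether reads of Ncl held these introns was not tested.

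For Npm1, Npm1-202 held 93.5% (92.6 to 94.3%), 97.8% (96.7 to 98.6%) and 99.1% (98.1 to 99.6%) of the counts in HE-AGM, HE-YSA and HE-YSP. Npm1-202 and Npm1-204, the transcript of the gene with the next most counts, part after a shared exon, and the exons that follow are at chr11:33153986-33154060 and chr11:33154927-33155220 on the minus strand (GRCm38). The junctions are printed because these letters tell the products apart, with the bases of the following exon in capitals.
Npm1-202: gcaagtatagaaaaaGGCGGTTCTCTTCCC
Npm1-204: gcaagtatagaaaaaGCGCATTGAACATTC
Max has a similar choice. Max-202 holds a coding exon of 27 nt at chr12:76961263-76961289 on the minus strand that Max-201 skips, shown in capitals between the bases of its neighbours.
Max-202: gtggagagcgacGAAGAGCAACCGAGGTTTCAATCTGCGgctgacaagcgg
In HE-AGM, Max-201 held 59.4% (47.5 to 71.1%) and Max-202 37.8% (26.4 to 49.7%) of 72 counts, and in HE-YSP each held 17.5% of 20 counts, with 65.0% (40.8 to 84.6%) in the short Max-205. HE-YSA had too few counts for a share.

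Mycn and Myc differed in shares of transcripts that begin at different sites. Mycn-201 held 78.6% (75.3 to 81.7%), 93.3% (90.4 to 95.5%) and 88.9% (83.1 to 93.3%) in HE-AGM, HE-YSA and HE-YSP, and Mycn-202, which starts 1298 nt further downstream and has 2 exons in place of 3 with the same coding length, held 19.9%, 5.24% and 11.1%. For Mycn-202 the runs gave 16.8, 21.6 and 21.3% in HE-AGM. They gave 7.49, 7.31 and 1.91% for the arterial and 10.2, 15.3 and 8.70% for the plexus population, so each run put HE-AGM highest. Of the Mycn counts, 72.2% were not whole numbers, so these shares are estimates from divided reads. The intervals do not cover the error of that division. For Myc, the shortest, Myc-206 of 1821 nt, held 36.9%, 63.4% and 54.0%, with runs from 19.8 to 71.3% in HE-AGM and from 22.2 to 76.2% in HE-YSA, which overlapped. Myc-201 and Myc-205 have the same length of 2338 nt and the same counts. Ddx21 was read almost wholly as Ddx21-201, with 95.8% in HE-AGM.

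The other genes of the pathway were taken from 8 lists, and the counts below are to be read beside the 29.3% higher and 12% lower of all genes for HE-AGM over HE-YSA and the 31.1% and 13.2% over HE-YSP. Mean transcript length and cDNA project differed between the tissues, as given above. Their part in the levels of all listed genes was not tested. In the Myc network, 8 of 15 genes were at least 2-fold higher in HE-AGM than in HE-YSA and 0 lower (median 1.06), and 9 and 0 of 15 against HE-YSP (1.54). Zbtb17, a partner through which Myc represses genes, had 49.9, 7.87 and 13.8 CPM in HE-AGM, HE-YSA and HE-YSP, and Mxd3, a Max partner that opposes Myc, had 26.7, 3.67 and 8.97 CPM. Mlx, a Max-like protein, had 15.9, 28.9 and 26.3 CPM, and Mycbp, which binds Myc, 17.4, 23.1 and 17.9 CPM.

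Among other nucleolar proteins 7 of 13 were higher and 1 lower against HE-YSA (median 1.05) and 8 and 0 of 13 against HE-YSP (1.65). Tcof1, a factor of RNA polymerase I transcription, had 294, 49.3 and 60.4 CPM, and Rsl24d1, which acts in large-subunit assembly, 124, 25.5 and 29.5 CPM. Rrp8, a methyltransferase of ribosomal RNA, had 14.4, 33.2 and 20.2 CPM, and Rsl1d1 86.1, 162 and 133 CPM.

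Genes of snoRNPs other than the members were less uniform, with 4 of 11 higher and 1 lower against HE-YSA (median 0.63) and 3 and 1 of 11 against HE-YSP (0.38). Snu13, a box C/D core protein, had 37.1, 15.3 and 11.8 CPM in HE-AGM, HE-YSA and HE-YSP, and Naf1, an assembly factor of box H/ACA particles, 42.1, 10.496 and 22.1 CPM. Dkc1, the pseudouridine synthase of those particles, was lower in HE-AGM, at 69.5 CPM against 143 and 192 CPM, and reached 298 CPM in p1 and 294 CPM in p2. Pih1d1, of the assembly complex of box C/D particles, had 73.0, 119 and 108 CPM.

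For RNA polymerase I and its factors, 3 of 10 genes were higher and 1 lower against HE-YSA (median 0.07) and 2 and 1 of 9 against HE-YSP (0.23). Taf1d, of the promoter selectivity factor, had 205, 89.7 and 95.3 CPM and the initiation factor Rrn3 49.0, 29.4 and 27.5 CPM. The subunit Polr1c had 113, 144 and 133 CPM. The subunit Polr1f had 3.45 CPM in HE-AGM (1.86 to 6.30) and 4.64 CPM in HE-Hb, against 51.8 and 54.2 CPM in HE-YSA and HE-YSP and 49.5 and 80.6 CPM in p1 and p2.

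Small-subunit assembly had 6 of 27 genes higher and 1 lower against HE-YSA (median 0.22) and 8 and 1 of 29 against HE-YSP (0.69). Pwp2 and Utp11, of the small-subunit processome, had 27.6, 7.35 and 1.79 CPM and 32.1, 8.40 and 10.2 CPM in HE-AGM, HE-YSA and HE-YSP. Pno1 had 33.6, 65.1 and 58.6 CPM, and the methyltransferase Emg1 289, 443 and 482 CPM. Large-subunit assembly had 9 of 38 higher and 6 lower against HE-YSA (median 0.43) and 8 and 6 of 38 against HE-YSP (0.20). The ATPase Mdn1 had 36.3, 6.30 and 4.79 CPM and Pelp1 48.4, 11.5 and 10.2 CPM, whereas Nifk, which binds Ki-67, had 54.4, 179 and 143 CPM and the helicase Ddx56 27.9, 63.0 and 72.4 CPM.

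Of Myc targets outside the nucleolus, 4 of 17 were higher and 1 lower against HE-YSA (median 0.73) and 9 and 1 of 17 against HE-YSP (1.11). Ccnd2, cyclin D2, had 144 CPM in HE-AGM and 33.1 CPM in HE-YSA, against 0.598 CPM (0.0151 to 3.33) for HE-YSP, and 3.05 and 1.37 CPM in p1 and p2. Tfrc, the transferrin receptor, had 37.8, 19.9 and 1.20 CPM in the HE populations. The translation factors Eif4e and Eif5a were lower in HE-AGM, at 6.66, 24.2 and 23.4 CPM and at 1385, 2331 and 2397 CPM.

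In the plexus the medians of all 7 lists lay above that of all genes. From HE-YSP early to late, 10 of 24 genes of large-subunit assembly were higher and 23 were above 0 (median 0.75), beside 8.77% of all genes higher and a median of 0.10. Small-subunit assembly had 3 of 10 higher (0.79), snoRNP 1 of 6 (0.68), RNA polymerase I 2 of 6 (0.58), other nucleolar proteins 2 of 5 (0.95), Myc targets 3 of 10 (0.71) and the Myc network 0 of 2 (0.56). From HE-YSA early to late the medians of these 7 lists lay between 0.03 and 0.40. From HE-YSA late to p1 and from HE-YSP late to p2, large-subunit assembly had 4 of 25 and 1 of 26 genes higher, with medians of 0.56 and 0.51, and small-subunit assembly 2 of 19 and 3 of 17, with medians of 0.34 and 0.57. For these steps 7.14% and 4.79% of all genes were higher, with medians of 0.05 and 0.05, so that the 1 of 26 was below the background. In the AGM the Myc network went the other way from the members, with 0 of 14 genes higher and 4 lower from HE-AGM early to late (median -0.40), beside 5.98% and 12.1% of all genes and a median of 0.44 for the members, while the medians of the 6 other lists lay between -0.07 and 0.40.

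The genes whose levels over the 9 clusters were most like a member were ranked by Pearson's r of log2(CPM + 1), among 9124 genes with at least 20 CPM in a cluster. The points share depth and tissue, and with 9 points and so many genes high values are bound to occur, so these are a description only. Closest to Myc were Sugt1 (r = 0.96), Idh3a (0.92), Iftap (0.91), Gm5297 (0.91) and Srm (0.91). Srm, the spermidine synthase, had 1119 CPM in p1 and 1163 CPM in p2, and between 263 and 760 CPM in the 7 other clusters. Closest to Mycn were Wdr3 (0.96), Socs6 (0.96), Mfsd14a (0.95), Zcrb1 (0.95) and Nfe2 (0.95). Nfe2, a transcription factor of megakaryocytes and red cells, was at 0 in HE-YSP early, at 61.4 and 278 CPM in HE-AGM early and late and at 56.0 CPM in HE-YSP late. Closest to the mean profile of the 7 nucleolar members were Mrpl18 (0.97), Slc1a5 (0.96), Gnl3 (0.96), Gm13307 (0.95) and Nasp (0.95). Gnl3, nucleostemin, had 49.4 CPM in HE-YSP early and 156 CPM in HE-AGM late. Among the members, Npm1 and Fbl had r = 0.92, Mycn and Nop56 0.88 and Myc and Nolc1 0.75, while Myc and Npm1 had 0.09.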

How the data were processed

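Single mouse cells were sorted, and their Smart-seq2 cDNA was read on a nanopore instrument. The authors basecalled the reads with Dorado, cut off adapters (bbduk), filtered out chimeras (YACRD, porechop), aligned the rest with Minimap2 2.26 to GENCODE transcripts (release 37), keeping up to 10 alignments per read, and ran NanoCount. The authors deposited the estimated counts per transcript and cell that NanoCount gave, without scaling, and a value can be a fraction of a read. The methods tie no genome build to that release (for the study as a whole its reporting summary lists GRCm39 and mm10), so coordinates were taken from GENCODE M21 (GRCm38), matched by identifier and length. The submitters' processing notes also name R 4.3.0 and DESeq2 1.40.2.

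Cells with under 17595 counts were left out (median less 1 median absolute deviation, as in the study), which kept 208 of 221. Clusters were taken from the labels and counts were summed over a cluster. CPM had exact Poisson and shares exact binomial 95% intervals, on counts rounded where not whole, and log2 ratios had 0.5 counts added and an interval conditional on the summed counts. No test was made, because each cluster counts as 1 sample. The ratio calculation was checked on simulated counts.

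The members and lists were chosen with earlier results of these data known. All members were named, transcripts with at least 10% of the counts of a member in an HE population, in each list up to 2 genes with the highest and 2 with the lowest mean log2 ratio of HE-AGM over both YS populations among those with at least 100 counts, and the 5 genes most like Myc, Mycn and the nucleolar mean. Npm1-204 and Ncl-201 were named outside this rule, after their values were seen, as was the profile of Nfe2. Alternatives covered the filter, scaling by TMM (edgeR 4.0.16) or by protein-coding totals, thinning, the mean over cells, single runs, clusters, days and labels. The work used Python 3.11.15, pandas 2.3.3, numpy 2.4.6, scipy 1.17.1, matplotlib 3.10.9 and R 4.3.3.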

Additional observations from a re-analysis of the deposited data

Results flagged for a closer look

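A copy of a member lay outside the symbol rule. Copies were looked for by name only, as the symbol of a member followed by -ps, so pseudogenes under other names were not looked for. Fbl-ps2, a pseudogene of Fbl, was read in all 3 HE populations, with 129.4, 29.82 and 31.7 counts and levels of 38.9, 15.6 and 18.96 CPM for HE-AGM, HE-YSA and HE-YSP, each more than the 3 counts that an absence of reads would allow. With its counts added to those of Fbl, the log2 ratio of HE-AGM was 0.83 over HE-YSA and 0.79 over HE-YSP, in place of 0.78 and 0.76.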

How the results depend on the processing

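The cause of the changes given here was not tested. The median log2 ratio of the members for HE-AGM over HE-YSA, 0.34 as reported, was 0.15 with TMM scaling, 0.22 with protein-coding totals, 0.41 with thinned cells, 0.49 in run 2 and 0.49 in run 3, 0.23 for the early and 0.67 for the late clusters, and 0.44 with YS cells of E10.5 alone. For HE-AGM over HE-YSP it was 0.65, and 0.28 as a mean over cells, 0.20 in run 2 and 1.03 with E10.5 alone, and 2 members past 2-fold became 0 with TMM and 0 as a mean over cells, 1 with protein-coding totals, 1 with thinning, 4 in run 1, 5 for the early and 1 for the late clusters, and 5 with E10.5 alone. For HE-YSP over HE-YSA it was 0.01, and 0.29 in run 2, -0.50 for the early and 0.47 for the late clusters, -0.25 with E10.5, 0.36 with Gfi1-labelled and 0.29 with Runx1-labelled cells, and 1 member past 2-fold became 2 in run 1, 2 in run 3, 2 for the early and 0 for the late clusters, and 4 with Runx1-labelled cells. Of 499 alternative values for ratios of single genes, 376 lay within the counting interval of the reported ratio and 123 outside it. The sign was the opposite in 49, of which 20 came from a single run, and in 7 of the 49 the reported interval had not included 0. These were Ncl for HE-AGM over HE-YSP (-0.09 with TMM, -0.03 as a mean over cells, -0.04 for the late clusters), Ncl for HE-YSP over HE-YSA (-0.15 for the early clusters), Max for HE-AGM over HE-YSP (-1.58 in run 2) and HE-YSP over HE-YSA (-1.41 in run 3), and Myc for HE-AGM late over HE-AGM early (-0.91 in run 1). The ratios of Myc in p1 over HE-YSA late and of Mycn in HE-YSP late over HE-YSP early stayed above 1 in every alternative run for them. Alternatives for the steps between clusters were chosen after seeing the data. The deposited TPM were not run as an alternative, being proportional to the counts within a cell. No paired analysis was possible because the result comes from no test and the groups share no replicate numbers that name an embryo. Depth limits Max most, with 138 counts in all.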

Other observations

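Cell-cycle genes, which were set beside the members as another list, differed between tissues in single genes more than as a list. Against HE-YSA, 3 of 10 were at least 2-fold higher in HE-AGM and 0 lower (median 0.54), and against HE-YSP 3 and 0 of 10 (0.21). Mki67, a marker of dividing cells, had 71.8 CPM in HE-AGM, 1.05 CPM in HE-YSA (0.127 to 3.79) and 5.98 CPM in HE-YSP, and Top2a, a topoisomerase of dividing cells, had 374, 50.6 and 107 CPM. Tyms, of thymidylate synthesis, had 252, 259 and 369 CPM and the replication helicase subunit Mcm6 257, 258 and 292 CPM. The part of read length and of the cDNA project in these levels was not tested.

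Markers of megakaryocytes (Pf4, Ppbp, Itgb3) summed to 180, 353 and 86.1 CPM in HE-AGM early, HE-AGM late and HE-Hb and to between 4.57 and 62.3 CPM in the YS clusters. Vwf and Cd24a, used by the study for the arterial trajectory of the YS, summed to 682 CPM in HE-AGM early and 294 CPM in HE-YSA early, and to no more than 23.1 CPM in HE-YSP, p1 and p2.

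In the 14 HE-YSA early cells of E10.5, Myc was at 186 CPM and Mycn at 89.9 CPM, and in the 7 cells of E9.5 Myc was at 21.5 CPM and Mycn at 275 CPM. The first Myc value includes the cell that held 55.4% of the counts of the cluster.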
